A study of Drosophila melanogaster with 2 samples.

Results

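The genes described here are 10 genes used to recognise neurons and glia in the fruit fly Drosophila melanogaster, out of 13968 protein-coding genes in the annotation. They are elav, fne, brp, nSyb, Syt1 and pros on the neuronal side and gcm, repo, moody and loco on the glial side. They were listed by name for their known roles, with earlier results of these data known. For each gene, every listed region from ChIP-seq of the transcription factor Crc was collected whose summit, the point of highest enrichment, lay in the gene body or within 5 kb of it. The windows held 79 of the 24369 candidate regions of the pooled replicates, a permissive list that takes in background by design, so a candidate is not by itself a bound site. They held 9 of the 2420 regions in the authors' optimal list. The optimal list keeps what passed the authors' filter on reproducibility, and its 2420 regions were the strongest of the pooled list by signal, the authors' score of enrichment.

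The study measured where Crc sits on the genome by chromatin immunoprecipitation followed by sequencing (ChIP-seq). The embryos came from a single fly strain, crc-MiMIC-GFP, in which an exon encoding eGFP inserted in a crc intron yields a Crc-eGFP fusion protein, and an antibody to GFP pulled that fusion down with its DNA. Whole embryos of both sexes aged 0 to 24 h were pooled, and their chromatin was sheared by sonication to fragments of 200 to 800 bp. The series holds 1 group with 2 replicates and no second strain, treatment or stage, so no condition is compared and no test is given. The insertion and the tag are shared by both replicates, and an untagged strain or an input library was not analysed here.

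Crc is the fly counterpart of ATF4, a leucine zipper protein that switches on amino acid and stress genes when translation is restrained. Neurons and glia of the fly arise from the same neural precursors, and the transcription factor Gcm tips daughter cells to the glial fate. Neurons then make RNA-binding proteins of the ELAV family and the proteins of the synapse, while glia keep Repo and build the barrier that seals the nervous system from the blood. A peak of a whole embryo does not name the cells it came from: few cells with strong binding and many cells with weak binding cannot be told apart.

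All 10 genes had at least 1 candidate region in their window, and 89.0% of all protein-coding genes did. An optimal peak lay in the window of 6 of the 10 genes, elav, brp, nSyb, pros, moody and loco, against 32.3% of all protein-coding genes. The 95% Wilson interval of 6 in 10 runs from 31.3% to 83.2%, covers counting error only, and takes in the share of all genes. fne, Syt1, gcm and repo had none. Only elav and moody had an optimal summit within 500 bp of a start of their own, which is 20% of the genes with an interval of 5.67% to 51%, against 11.5% of all protein-coding genes.

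Gene length bears on these counts, because a long gene takes in more regions. The 10 genes had a median length of 16.7 kb, against 2.16 kb over all protein-coding genes. An optimal peak was present for all 4 genes of 5 to 20 kb, elav, nSyb, moody and loco, against 42.1% of all genes of that length. Among genes of 20 kb or longer, brp and pros had one and fne and Syt1 did not, against 48.2% of genes of that length. repo and gcm are the 2 genes under 5 kb and neither had one, against 28.5% of genes of that length.

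**Figure D1:**
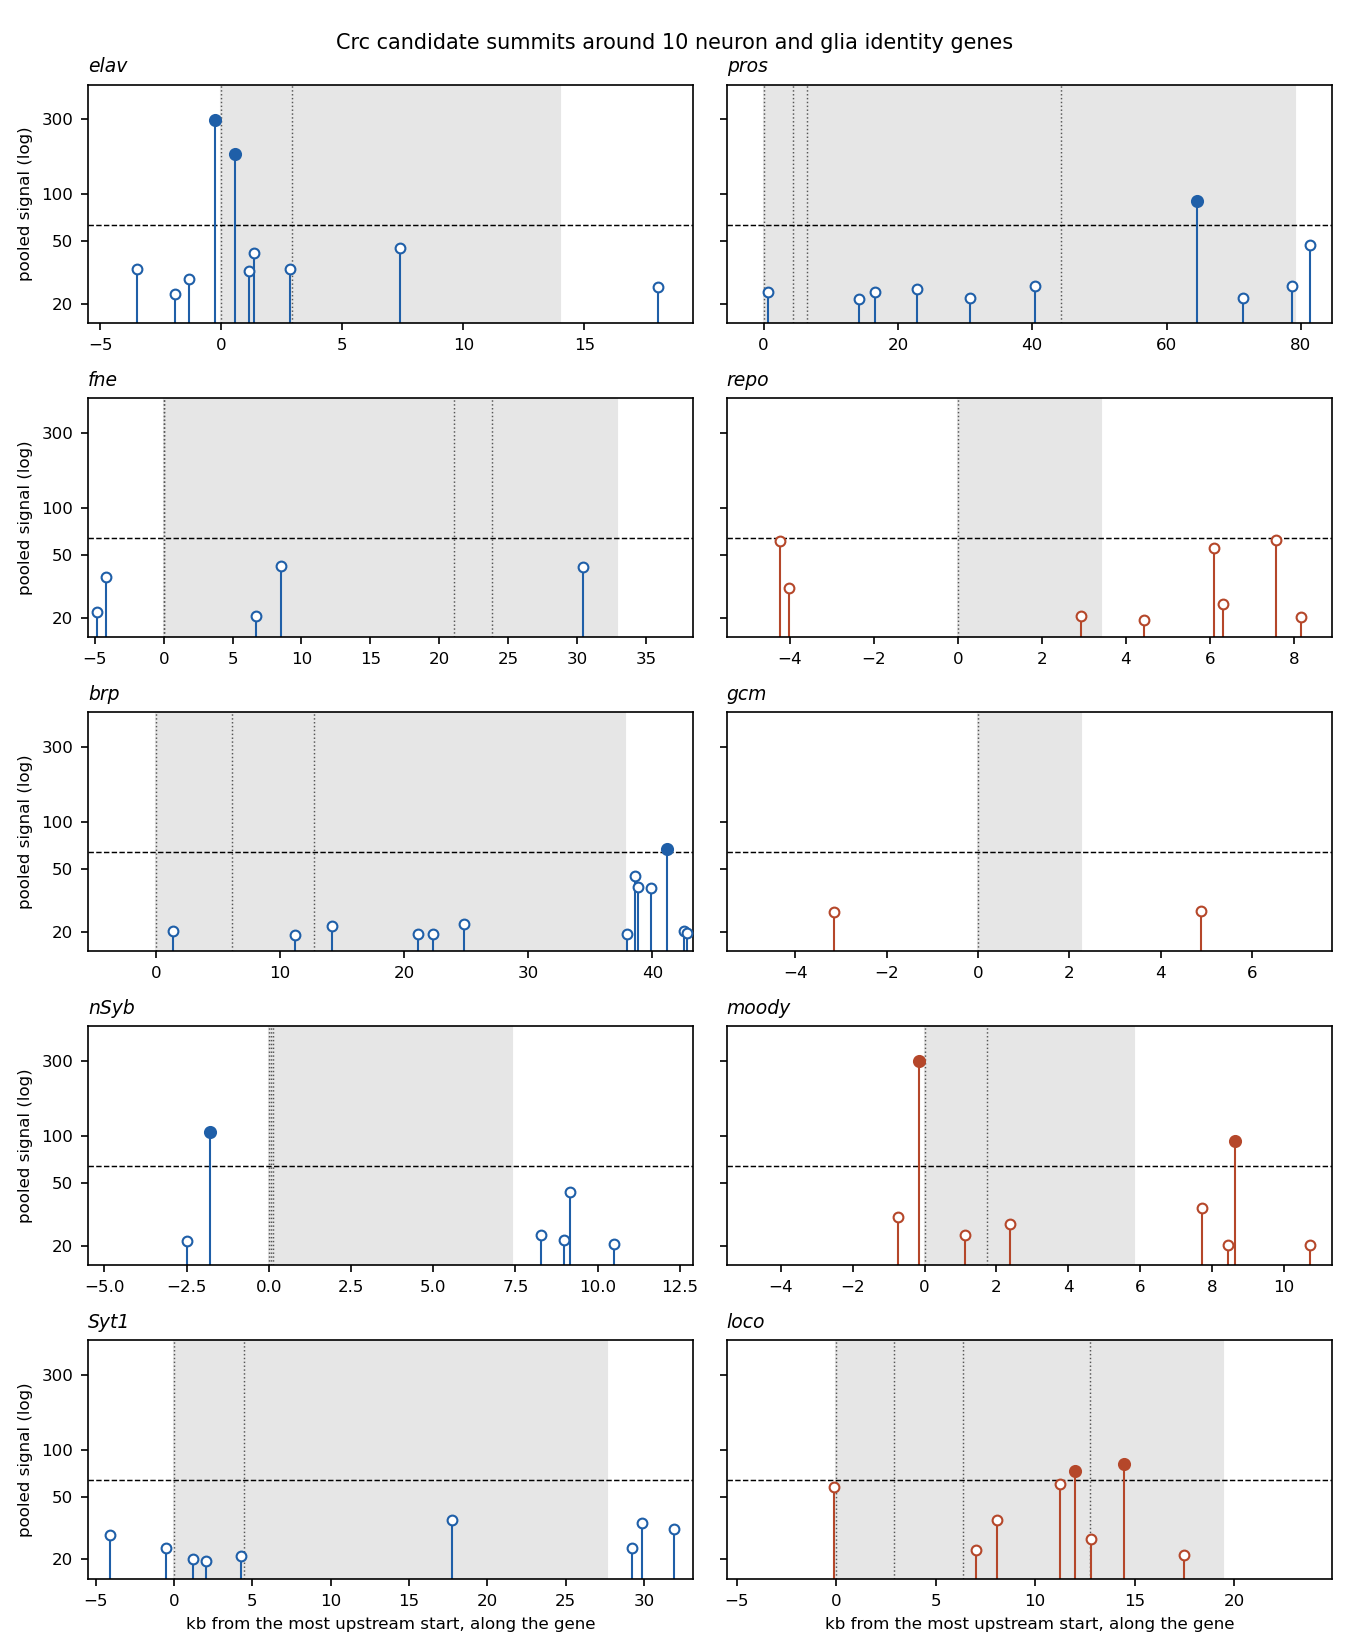
Candidate regions around each of the 10 genes, by distance of the summit from the gene's most upstream start in kb and the authors' pooled signal (log axis). Neuron genes are blue and glia genes red, filled points are optimal peaks, grey marks the gene body, dotted lines its starts and the dashed line the lowest optimal signal, 63.98. The strongest regions of elav (signal 298.8) and moody (298.6) sit beside the gene's own start, while the optimal peaks of brp, nSyb and pros lie away from it.

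elav encodes an RNA-binding protein made in almost all neurons, where it directs alternative splicing and the choice of RNA end. The gene (X:509235-523226, minus strand) had 10 candidate regions, 2 of them optimal, and 9 of the 10 were found in both replicates. Its strongest region, X:523358-523618, had a pooled signal of 298.8 and ranked 114 of 24369. The signal was 103.2 at rank 164 in replicate 1 and 189.3 at rank 104 in replicate 2, so both libraries placed it near the top of their lists. Its summit lay 236 bp upstream of the elav start, inside an intron of arg, a gene that runs through elav on the other strand. The second optimal region, X:522581-522680, lay in the first part of elav, in an intron 577 bp downstream of the same start and 813 bp from the first summit. It had a pooled signal of 179.4 and ranked 368, with 85.9 at rank 271 in replicate 1 and 89.5 at rank 555 in replicate 2. An inner start of elav, 2941 bp into the gene, had a candidate 110 bp away with a signal of only 33.2.

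The windows of 201 bp around these summits are printed because they carry the strongest and second strongest regions among the 6 neuronal identity genes. They are read on the minus strand, the strand of elav, from the Release 6 (dm6) genome of RefSeq. Capitals would mark any of 8 short elements searched, which are spelled out with the results on sequence below, or the letters TGACGT, and neither window holds one.
elav upstream X:523362-523562: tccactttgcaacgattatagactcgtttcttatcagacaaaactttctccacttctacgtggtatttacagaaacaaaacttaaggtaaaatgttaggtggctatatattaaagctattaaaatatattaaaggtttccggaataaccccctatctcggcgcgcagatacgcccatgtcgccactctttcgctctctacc
elav intron X:522549-522749: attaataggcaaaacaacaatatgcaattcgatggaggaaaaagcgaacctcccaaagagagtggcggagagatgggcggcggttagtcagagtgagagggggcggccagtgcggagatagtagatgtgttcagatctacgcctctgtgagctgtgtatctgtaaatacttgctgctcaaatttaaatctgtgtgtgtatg

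fne encodes a close relative of Elav that is also made in neurons. Its 32.9 kb gene (X:12917477-12950417, plus strand) had 5 candidates and no optimal peak. The strongest lay in an intron 8515 bp from the nearest fne start, with a pooled signal of 42.7 at rank 4784, with 13.2 at rank 16668 in replicate 1 and 30.7 at rank 3628 in replicate 2. A second region in the 3′ UTR had a nearly equal signal of 42.4. No candidate lay within 4 kb of any fne start. elav and fne therefore differed in the lists: the elav start had a region ranked 114, and the nearest region to the fne outer start, 4225 bp away, had a signal of 36.2 at rank 6320. The remaining fly gene of this family, Rbp9, had no optimal peak either, and its strongest candidate had a signal of 58.2. That summit lay outside Rbp9, 13587 bp from its nearest start and 157 bp from the start of gammaTub23C.

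pros encodes a homeodomain protein that moves into the nucleus of ganglion mother cells and ends their divisions, and that also marks a set of glia. It is the longest of the 10 genes at 79.1 kb (3R:11328480-11407627, plus strand) and had 10 candidates. Its 1 optimal peak, 3R:11392818-11393217, had a pooled signal of 90.3 at rank 1371, with 55.7 at rank 671 in replicate 1 and 37.1 at rank 2608 in replicate 2. The region is in the 3′ UTR of pros, 20230 bp from the nearest pros start and 14900 bp from the nearest start of any gene, that of mRpL40. Its window holds 9 overlapping matches to the GAGA element. The starts of pros themselves had little: the nearest candidate to any of them lay 707 bp away with a signal of 23.7.

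Of the 3 genes of the synapse, nSyb and brp had an optimal peak in their windows and Syt1 had none, and in neither case did the peak lie at the gene's own start. nSyb encodes the synaptobrevin of neurons, the vesicle protein that zips with its membrane partners to drive transmitter release. Its optimal peak, 3L:1639339-1639738, had a pooled signal of 106.0 at rank 1036, with 33.2 at rank 1746 in replicate 1 and 71.6 at rank 842 in replicate 2. That summit lay 1787 bp upstream of nSyb but only 172 bp from the start of Bgb and 304 bp from that of Mettl2. All 6 candidates of nSyb were in its flanks and none was in its 7.4 kb body.

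brp encodes Bruchpilot, a scaffold of the active zone where synaptic vesicles fuse. Its window (2R:9503765-9541565 with flanks, plus strand) had the most candidates, 13, with 1 optimal peak at 2R:9544742-9545141. This peak had a pooled signal of 66.9 at rank 2243, with 38.3 at rank 1331 in replicate 1 and 27.9 at rank 4265 in replicate 2. It lay past the end of brp, 28491 bp from the nearest brp start, in the 3′ UTR of the neighbouring gene CG1888, whose start was 2016 bp away. The 6 candidates inside the brp body were all weak, with signals from 19.1 to 22.5, and only the flank beyond the gene held stronger ones. The optimal peak was also the only one of the 9 with a match to the CARE, the element that ATF4 and C/EBP proteins bind in mammals.

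Syt1 encodes synaptotagmin, the calcium sensor of the synaptic vesicle. The gene (2L:2772327-2799979, minus strand) had 9 candidates with signals from 19.5 to 35.6. The strongest was in the Syt1 3′ UTR, ranked 6499 in the pooled list and 3157 in replicate 1, where its signal was 24.6, and was not found in replicate 2. Only 1 of the 9 candidates was found in both replicates. The candidates nearest to its starts, 139 bp and 505 bp away, had signals of 21.1 and 23.5.

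The 2 transcription factors of glial fate had no optimal peak. gcm encodes the switch that starts glial development, and its short gene (2L:9579498-9581745, minus strand) had only 2 candidates. One had a signal of 27.0 at rank 11309 and sat 100 bp from the start of Mtpalpha, with 17.5 at rank 7480 in replicate 1 and 12.6 at rank 17866 in replicate 2. The other had a signal of 26.6, lay 3148 bp upstream of gcm in an exon of a noncoding RNA, and was found in replicate 1 only. repo encodes the homeodomain protein that glia keep once specified. Its window (3R:18236192-18239602 with flanks, plus strand) held 8 candidates, of which 4 were found in both replicates.

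repo came nearest to the optimal list among the 4 genes without an optimal peak. The lowest signal in the optimal list was 63.98, and the 2 strongest repo candidates had pooled signals of 62.2 at rank 2531 and 62.1 at rank 2541. The first, in an intron of the neighbour 14-3-3epsilon and 7581 bp from the repo start, had 21.5 at rank 4265 in replicate 1 and 37.6 at rank 2546 in replicate 2. The second, 4237 bp upstream of repo with no nearer start, had 26.2 at rank 2749 and 33.5 at rank 3109. Both were found in each library, and their pooled signals lay just below the limit. Another repo candidate, with a signal of 55.9, lay between the starts of CG7156 and 14-3-3epsilon. Just inside the limit, the weakest optimal peak of the 10 genes was that of brp at 66.9.

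moody encodes a G protein-coupled receptor that surface glia need to seal the blood-brain barrier. The gene (X:2044292-2050120, minus strand) had 8 candidates, 2 of them optimal. The stronger, X:2050164-2050404, had a pooled signal of 298.6 at rank 116. Its replicate values were 110.2 at rank 139 in the first library and 185.0 at rank 107 in the second, so in both it stood as high as the elav promoter peak. The summit lay 152 bp upstream of the moody start, within an intron of CG4313 on the other strand. The other optimal peak, X:2041289-2041688, had a signal of 93.4 at rank 1296, with 38.0 at rank 1351 and 59.9 at rank 1144 in the 2 replicates. It lay 6906 bp from the nearer, inner start of moody and 177 bp from that of usp, the nuclear receptor partner of the ecdysone receptor.

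loco encodes an RGS protein that speeds the shut-off of G proteins and acts with Moody in the same glia. The gene (3R:22619968-22639387, minus strand) had 8 candidates, 2 of them optimal and both in introns. The first, 3R:22624711-22625110, had a pooled signal of 81.8 at rank 1610, with 18.0 at rank 6977 in replicate 1 and 63.9 at rank 1017 in replicate 2. The second, 3R:22627202-22627601, had 73.4 at rank 1924, with 47.8 at rank 1693 in replicate 2. In replicate 1 no summit lay within 100 bp of it, and the nearest, 119 bp away, had a signal of 26.7 at rank 2627. Both loco peaks therefore ranked better in replicate 2. The summits lay 1723 bp downstream and 768 bp upstream of the innermost loco start, and the outermost start had a candidate 120 bp away with a signal of 57.8 at rank 2868, just under the optimal list.

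The moody promoter window and the stronger loco window are printed because they carry the glial peaks with a sequence match. Both are read on the minus strand, the strand of the genes, from the RefSeq Release 6 genome. Capitals in moody mark TGACGT, the part shared with the CRE, which was looked for after the sequences had been seen, and capitals in loco mark 3 overlapping matches to the GAGA element.
moody promoter X:2050172-2050372: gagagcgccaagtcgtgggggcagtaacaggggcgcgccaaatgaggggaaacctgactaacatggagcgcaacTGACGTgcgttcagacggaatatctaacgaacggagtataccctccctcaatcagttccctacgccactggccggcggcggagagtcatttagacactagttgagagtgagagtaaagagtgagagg
loco intron 3R:22624811-22625011: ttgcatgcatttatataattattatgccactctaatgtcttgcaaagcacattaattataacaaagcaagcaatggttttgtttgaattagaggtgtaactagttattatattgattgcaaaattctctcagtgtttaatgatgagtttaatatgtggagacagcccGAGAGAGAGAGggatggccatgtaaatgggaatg

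The 79 candidates of the 10 genes had nearly the same median signal as all candidates. Their signals ran from 19.1 to 298.8 with a median of 26.6, and the median over all candidates was 26.1. A share of 11.4% of them was optimal, against 9.93% of all candidates, and the 95% Wilson interval of that share, 6.11% to 20.3%, takes in the latter. The median number of candidates for each 10 kb of window was 2.72, and 2.3 over all protein-coding genes.

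The replicates were compared by asking whether a summit of each replicate's own list lay within 100 bp of the pooled summit. Both replicates had one for 30 of the 79 candidates, or 38%, with an interval of 28.1% to 49%, against 35.6% of all candidates. A further 18 were found in replicate 1 only, 19 in replicate 2 only and 12 in neither. Of the 9 optimal peaks 8 were found in both, the exception being the second loco peak, against 94.6% of all optimal peaks. Among the 30 found in both, 12 ranked better in replicate 1 and 18 in replicate 2. Spearman's rho between the replicates' signals was 0.736 over those 30 and 0.667 over the 8683 such candidates of the genome, both as descriptions, since the pooled list was made from the same libraries. Each replicate list stops at 30000 regions, where the lowest value is 10.3 for replicate 1 and 9.23 for replicate 2, so a summit not found may lie below that limit.

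**Figure D2:**
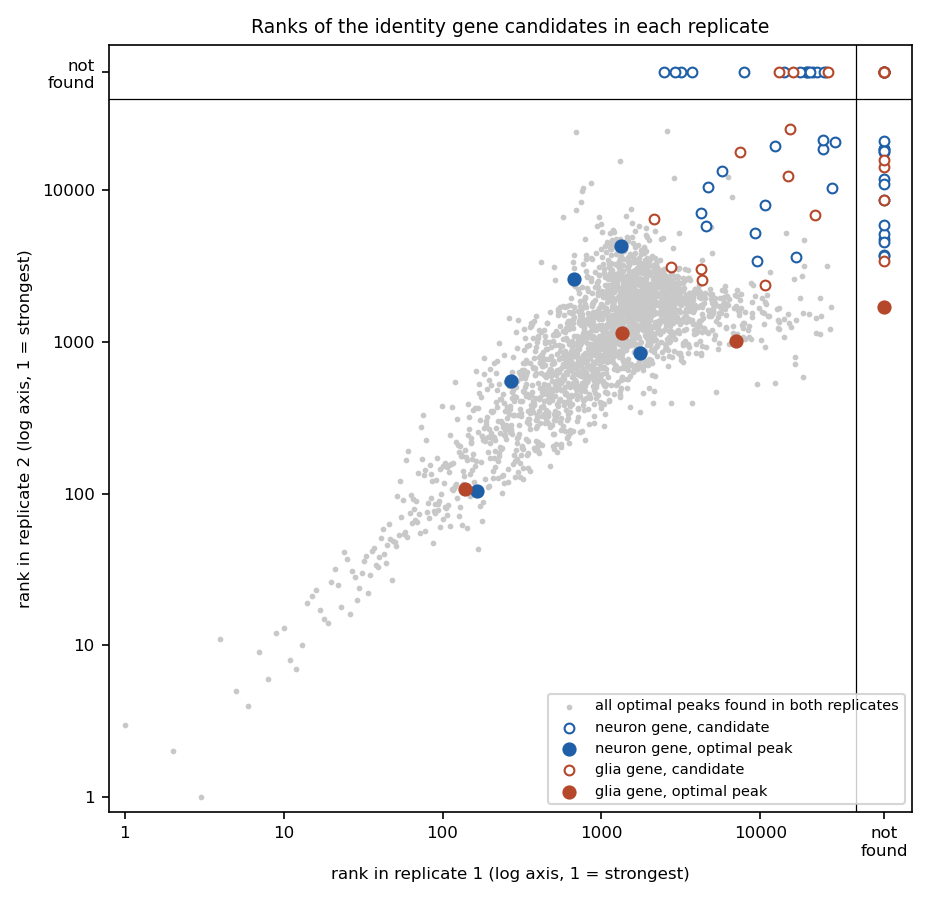
Rank of each candidate of the 10 genes in replicate 1 (horizontal, log axis) and replicate 2 (vertical, log axis), with candidates that had no summit within 100 bp in a replicate in the strips marked not found. Neuron genes are blue and glia genes red, filled points are optimal peaks, and all optimal peaks found in both replicates are grey. The elav and moody promoter peaks lie together near rank 100 in both libraries, and the second loco peak sits in the strip of regions not found in replicate 1.

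Most candidates of these genes lay away from their starts. Of the 79, 37 were in gene bodies and 42 in flanks, 6 lay within 500 bp of the gene's own start and 14 only within 500 bp of the start of another gene. Together 20, or 25.3%, lay at a start of some protein-coding gene, with an interval of 17% to 35.9%, against 27.8% of all candidates. Counted from the starts, 6 of the 26 annotated starts of the 10 genes, or 23.1%, had a candidate within 500 bp, with an interval of 11% to 42.1%, and the share of all protein-coding starts, 43.9%, lies just above it. An optimal summit was that near to 2 of the 26, or 7.69%, against 10.5% of all starts. The starts of 1 gene lie close together in places, as the 3 of nSyb do, and are not independent of each other.

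Regions in 3′ UTRs made up 11 of the 79 candidates, or 13.9%, with an interval of 7.96% to 23.2%, which lies above the 3.67% of all candidates. They came from elav, fne, Syt1, repo and pros, each in the gene's own 3′ UTR, and from the CG1888 end beside brp. Among optimal peaks 2 of the 9 lay in a 3′ UTR, those in the windows of pros and brp, against 21 of all 2420, or 0.868%. The class was picked out after its values were seen, several of the regions share a gene, and the length of 3′ UTR in each window was not compared.

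The 201 bp window around each summit was searched on both strands for 8 elements. They were the CARE, spelled TGATGNAAT or TGATGNAAC, the CRE with the palindrome TGACGTCA, the DRE of the factor Dref with TATCGATA, and motif 1 of core promoters, read as GGTCACACT. The other four were the site of the early activator Zelda, taken as CAGGTAG, the repeat of the GAGA factor, searched for as GAGAGAG, the site of Gcm, read as ATGCGGG, and an E-box of proneural proteins with the letters CAGCTG. A long repeat gives several overlapping matches, and a match describes the letters and does not show a bound site. At least 1 element was present in 18 of the 79 windows, or 22.8%, with an interval of 14.9% to 33.2%, against 18.2% of all candidates. The E-box, the commonest, was in 7 windows, or 8.86%, against 9.48% of all candidates. GAGA was in 4, or 5.06%, against 3.3%, and the 4 lay in the windows of elav, pros, repo and loco. The Gcm site was in 3 windows, those of Syt1, gcm and loco, or 3.8% against 1.13%, and none of the 3 was optimal. The CARE was in 2 windows, or 2.53% against 1.46%, that beside brp and a weak region in the nSyb window with a signal of 21.6. The DRE was in 2 windows, or 2.53% against 1.83%. The CRE, motif 1 and Zelda site were in none, against 0.373%, 0.895% and 1.05% of all candidates. Those shares are so low that their absence from 79 windows says little. Among the 9 optimal peaks 3 held an element, those of brp, pros and loco, against 20.2% of all optimal peaks, so the windows with the highest signals, at elav and moody, held none of the 8.

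Other genes of neurons, glia and, for comparison, muscle were read with the same window. An optimal peak was present for 10 of 38 other neuron genes, or 26.3% with an interval of 15% to 42%, and for 6 of 19 other glia genes, or 31.6% with an interval of 15.4% to 54%. It was present for 5 of 10 muscle genes, or 50% with an interval of 23.7% to 76.3%. Each interval takes in the 32.3% of all protein-coding genes, but that share, also used for the lists below, is not matched for gene length. The median lengths were 14.2 kb, 8.36 kb and 26.4 kb for the neuron, glia and muscle lists, against 2.16 kb over all protein-coding genes. The intervals of the neuron and glia lists end below the 60% of the identity genes but overlap that share's own interval, and the difference was not tested. At a start of their own, 1 of the 38 neuron genes (2.63%), none of the 19 glia genes and 3 of the 10 muscle genes (30%) had an optimal summit, against 11.5% of all protein-coding genes.

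Among genes of synaptic release, 2 of 14 had an optimal peak, or 14.3% with an interval of 4.01% to 39.9%. That interval takes in the 32.3% of all protein-coding genes, but the list had a median length of 26.1 kb. By length, 1 of 4 genes under 5 kb, 0 of 2 of 5 to 20 kb and 1 of 8 longer ones had a peak. The shares of all genes of those lengths were 28.5%, 42.1% and 48.2%, and the difference was not tested. Syx1A, the membrane partner of nSyb, had a signal of 154.4, but at the start of eIF4EHP. Rim, an active zone protein that works beside Bruchpilot, had 85.3. That summit lay outside Rim, 2646 bp from its start and 608 bp from the start of cpo. Snap25, unc-13, Rop and cpx had none. Of 13 genes of excitability, transmitters and axons 5 had one, or 38.5% against the same 32.3%. ChAT and VAChT, which make and load acetylcholine and share a locus, shared 1 peak with a signal of 137.9. Its summit lay inside ChAT but outside VAChT, 14491 bp from the nearest start of each and 2598 bp from that of CG34283. Gad1, which makes GABA, had 109.2, with the summit outside the gene, 15241 bp from its start and 1113 bp from that of CG32259. Nrg, an adhesion protein of axons and glia, had 95.2 in an intron. The channel genes para and Sh and the transporter genes VGlut and Vmat had none.

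Of 10 neuroblast and proneural genes 3 had an optimal peak, or 30% against 32.3% of all genes. The strongest was at brat, which stops neuroblast daughters from dividing further, with a signal of 300.1 at rank 113, as high as the elav and moody peaks. insc, which orients the neuroblast spindle, had 71.2, and numb, a fate determinant shared out unequally in that division, had 64.4. The numb peak, at rank 2396, was close to the lowest optimal signal of 63.98 and had no summit within 100 bp in replicate 1. The proneural genes ac, sc and l(1)sc and the neuroblast gene ase had none.

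Of 14 further glia genes 5 had an optimal peak, or 35.7% against 32.3% of all genes. The strongest was in the window of nrv2, a sodium pump subunit of glia, with a signal of 255.1, but it sat at the start of its neighbour nrv1. Gs2, the glutamine synthetase that clears glutamate in glia, had 188.7 in an intron of its own. pnt, an ETS factor of glial development, had 156.2, and Tret1-1, a sugar transporter of the barrier glia, had 151.0. The Tret1-1 summit lay outside the gene, 4142 bp from its start. gcm2 and the septate junction genes Nrx-IV, Gli and Cont had none. Among 5 G protein and kinase genes that work with Moody, only Gbeta13F had one (20%), with a signal of 377.6 at the start of its neighbour Gapdh2, and Galphai, Galphao, Ggamma1 and Pka-C1 had none.

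In the muscle list, Mef2, the regulator of muscle differentiation, had 570.7 at Pal1 in its window. Tm1, a tropomyosin gene, had 134.0 at the start of Cp190, how had 112.4 and sls, the titin-like gene, had 88.5. twi, Mhc, Act57B and bap had none. Strong peaks in these windows were thus not restricted to nervous system genes, and several sat at neighbours' starts.

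**Figure D3:**
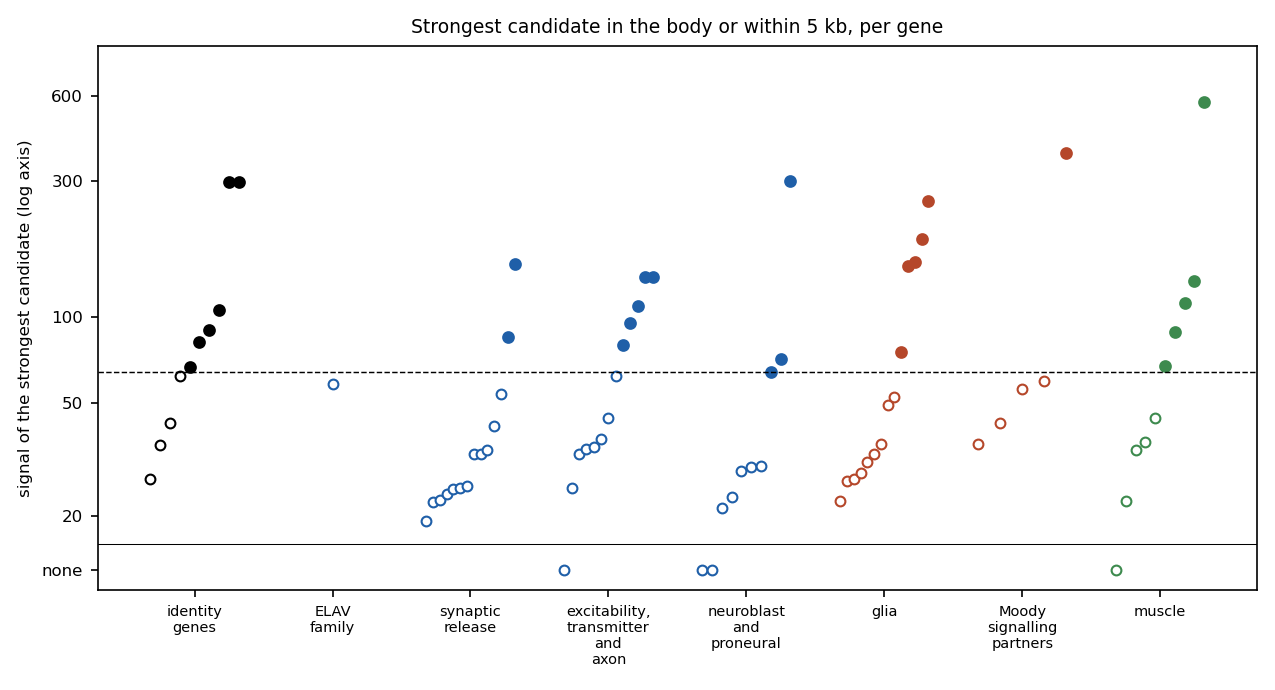
Strongest pooled signal (log axis) in the window of each gene, by gene list, with filled points for genes with an optimal peak, open points for genes with candidates only, genes without a candidate at none, and the lowest optimal signal, 63.98, as a dashed line. The identity genes range from 27.0 for gcm to 298.8 for elav. The highest signal of any list, 570.7, is in the window of Mef2 in the muscle list, 155 bp from the start of Pal1.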

How the data were processed

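Crc-eGFP ChIP-seq regions from 2 replicates of whole embryos were read from 4 deposited lists on dm6: a candidate list for each replicate, a candidate list on the pooled replicates, and the optimal list. The authors deposited the candidate lists as peaks and background for their reproducibility filter, so they are permissive and are not calls of binding. The deposited score of each region, called signal here, and its summit offset are the authors' values. The −log10 q value that the authors deposited only broke ties in rank. No aligner or peak caller is named in the labels or the file headers, and read depth is unknown. Lists on the older build were not used, because the annotation (Ensembl BDGP6.54, release 115) is on Release 6, and no region passed the end of its arm. Signals of the lists are on their own scales, so replicates were compared by rank.

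Summits were set against genes with Python 3.11.15, pandas 2.3.3, numpy 2.4.6 and scipy 1.17.1, and figures were drawn with matplotlib 3.10.9. The code was checked on made-up summits with known answers. The replicates are numbered as biological replicates, per the labels. The genes and gene lists were chosen with earlier results of these data known. Named were all 10 genes with their optimal peaks and strongest candidates, the gene with the nearest start, and, of each other list, the 4 genes with the strongest optimal peaks and up to 4 without one, in list order. The windows of 5 kb, the 500 bp limit to a start, the 100 bp matching distance, the number of peaks, the library used and the element window were varied.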

Additional observations from a re-analysis of the deposited data

How the results depend on the processing

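The counts depended most on the window. With no flank, 3 of the 10 genes had an optimal peak (elav, pros and loco, against 7.77% of all protein-coding genes), as did 5 other neuron, 3 other glia and 3 muscle genes. The candidates then fell from 79 to the 37 in gene bodies. Of those 37, 11 were found in both replicates, against 35.6% of all candidates. A flank of 2 kb left 6 other neuron genes (against 22.4%), and one of 10 kb gave 10 other glia genes (against 45%). Keeping the stronger 1210 optimal peaks left 3 of the 10 genes (elav, nSyb and moody, against 19.7%), 5 other neuron and 3 muscle genes. A limit of 200 bp to a start left 1 gene, moody, with an optimal promoter peak, and a limit of 1 kb put 32 candidates at a start. With 50 bp on each side of the summit 9 windows held an element. For these start limits and this window the shares over all genes and all candidates were not computed, so the 3 counts have nothing to be read against. With 1 replicate left out, peaks were taken as the strongest 2420 regions of the remaining replicate's own candidate list. They were not filtered on reproducibility, so they are not the same kind of call as the optimal list. On that count, 5 to 6 of the 10 genes had a peak. The shares of all protein-coding genes were 32.2% without replicate 1 and 33.2% without replicate 2. Without replicate 1, brp and pros lost theirs. repo gained one between the starts of CG7156 and 14-3-3epsilon (rank 2360 in replicate 2). Without replicate 2 the 6 genes were the same, but loco kept its place through the candidate at its outer start (rank 2128 in replicate 1). Neither of the 2 optimal loco regions was among the strongest 2420 of replicate 1. Against the same shares of all protein-coding genes, the ranges were 11 to 11 of 38 other neuron genes, 6 to 7 of 19 other glia genes and 4 to 5 of 10 muscle genes. They were 2 to 3 for promoter peaks (loco gained one without replicate 2), 10 to 10 for genes with a candidate and 19 to 25 for candidates at a start. Shares over all genes were not computed for the last 3 with a replicate left out. Leaving out summits at another gene's start, chosen after seeing the data, gave 5, 10, 5 and 5 genes in the 4 sets. The share of all protein-coding genes under that choice was not computed, so these counts have nothing to be read against. Of 54 recomputed counts, 41 stayed within 1.5 times the reported count. gcm has no candidate with a flank of 0 bp or 2 kb and nSyb none with 0 bp, and Syt1 has no rank without replicate 1, so they give no value there. No paired analysis was possible because there is 1 group and no test. Depth is unknown, so a region missing from a list is not shown to be unbound.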

Other observations

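A flank of 10 kb brought stronger neighbours into the windows, and 8 of the 10 genes then had an optimal peak, against 45% of all protein-coding genes. The strongest region near brp then had a signal of 733.0 at rank 13, 219 bp from the start of CG1888, and that near nSyb had 178.8, 108 bp from the start of alphaCOP. Syt1 and gcm, which had no optimal peak within 5 kb, then had at least 1. The strongest for Syt1 had 138.2 at 236 bp from the start of aph-1, and that for gcm had 107.5 at 231 bp from the start of brwl. fne and repo had no optimal peak at this width either. All 4 summits lay within 250 bp of the start of a neighbour.

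The letters TGACGT, looked for after the moody window had been read, were present in 3 of the 79 windows of the 10 genes, or 3.8%, against 4.06% of all candidates and 3.76% of all optimal peaks. The 3 were the moody promoter peak and weak regions beside brp and in loco, with signals of 20.1 and 23.0.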
